A study of Rattus norvegicus with 60 samples.

Results

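The regions described here carried peaks of DNA methylation in the hypothalamus of nearly all newborn rats and of few or no rats at weaning. Peaks from all 60 samples of the study were merged wherever they overlapped by 1 bp or more on chr1 to chr20 of the Rn6 genome, which gave 609781 regions. A region was taken when 10 or more of the 12 hypothalami from postnatal day 1 (P1) and 2 or fewer of the 12 hypothalami from P22 held a peak in it. This rule found 6516 of the 609781 regions (1.07%), or 6.31% of the 103331 regions with a peak in 10 or more P1 samples. The regions were therefore selected on their P1 and P22 peaks, and values at those ages describe the choice. Peaks on P8, on P15 and in blood cells were not used by the rule.

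The animals were female Sprague-Dawley offspring of 3 prenatal groups. Dams of the prenatal alcohol exposed (PAE) group had free access to a liquid diet with 36% of its calories from ethanol (6.37% v/v), from gestation day 1 to 21. The intake of each pair-fed (PF) dam was held to that of a PAE partner, on a liquid diet with maltose-dextrin replacing the ethanol. Control (C) dams ate pellets of this ethanol-free diet without limit. Hypothalami were taken on P1, P8, P15, and P22, with 4 samples per group and age, and white blood cells (WBC, the mononuclear fraction of trunk blood) came from the same 12 animals on P22. The samples of P1, P8, and P15 went through methylated DNA immunoprecipitation (meDIP) in round 2, and the P22 hypothalami and WBC in round 1.

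In mammals, methyl groups are added to cytosines, mostly where a guanine follows, by DNA methyltransferases, and can be lost through cell division or removed by way of TET enzymes. meDIP pulls down DNA fragments with an antibody against 5-methylcytosine, so that a peak marks a stretch where methylated fragments pile up above the local background. The rodent hypothalamus, which governs stress responses, feeding and reproduction, continues to mature after birth, when glial cells multiply, axons are myelinated and synapses form. It is a mixture of cell types, and a change in the number of cells of a type and a change in methylation within cells cannot be told apart in these samples.

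By the rule, peaks were frequent in these regions on P1 and rare on P22. The P1 samples held a peak in 84.9% of them at the lowest, 88.3% at the median, and 93.1% at the highest. In the P22 hypothalami, these shares were 5.82%, 10.3%, and 15.9%. Only 201 of the 6516 regions reached the extreme of a peak in 12 of 12 P1 and 0 of 12 P22 samples. Many lay close to the limits of the rule, with 3214 at exactly 10 P1 samples and 2945 at exactly 2 P22 samples. Just outside the limits, 4451 regions had a peak in 9 P1 and 2 or fewer P22 samples, and 3648 had one in 10 or more P1 and 3 P22 samples. The regions at 10 P1 samples held a peak in 60.0% of P8 and 36.9% of P15 samples on average, and those at 9 in 54.0% and 33.2%. Regions on either side of the P22 limit had peaks in 70.3% (2 samples) and 74.2% (3 samples) of P8 samples, and in 46.8% and 52.7% of P15 samples. The neighbouring classes thus differ by a few percent, with no break at the limits.

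Between these ages, peaks were fewer on P15 than on P8. A P8 sample held a peak in 65.6% ± 4.65 of the 6516 regions (SD, n = 12), with a lowest share of 55.2%, a median of 67.0%, and a highest of 71.5%. On P15, the share was 41.2% ± 9.61 (SD, n = 12), with a lowest of 26.2%, a median of 41.4%, and a highest of 56.7%. The ranges of the ages overlapped only through P15 PAE 12 at 56.7% and P8 C 6 at 55.2%. Counted by region, 5461 (83.8%) had a peak in fewer P15 than P8 samples, 508 in equal numbers, and 547 (8.39%) in more. In 5539 regions (85.0%), the number of samples with a peak did not increase at any step from P1 to P22, an order whose ends were set by the rule.

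Other regions with peaks on P1 were compared over the same interval. The class closest to the set, 40329 regions with a peak in 10 or more P1 and 3 to 9 P22 samples, held a peak in 85.1% ± 4.35 on P8 and 69.8% ± 8.70 on P15. Of these, 29464 (73.1%) had fewer P15 than P8 samples with a peak, against 83.8% in the set. In the 56486 regions with a peak in 10 or more samples on both P1 and P22, called retained regions here, P8 samples held a peak in 97.3% ± 1.66 and P15 samples in 93.3% ± 3.54. Among the retained regions, 19025 (33.7%) had fewer P15 than P8 samples with a peak and 33371 (59.1%) had equal numbers, in part because most were near the maximum of 12. In the 2864 regions with the opposite pattern (2 or fewer P1 and 10 or more P22 samples, called gaining regions here), the shares were 47.9% ± 9.68 on P8 and 63.9% ± 8.37 on P15. Among the gaining regions, 1977 (69.0%) had more P15 than P8 samples with a peak and 515 (18.0%) had fewer.

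A peak in 10 or more of 12 samples was found in 1786 regions (27.4%) on P8 and 215 (3.30%) on P15. A peak in 2 or fewer samples was found in 103 (1.58%) on P8 and 1108 on P15. The most common course, in 3583 regions (55.0%), was a peak in 3 to 9 samples at both ages. Another 1567 regions (24.1%) went from 10 or more P8 samples to between 3 and 9 P15 samples, 970 (14.9%) from between 3 and 9 to 2 or fewer, and 78 (1.20%) from 10 or more to 2 or fewer. A peak remained in 10 or more samples at both ages in 141 regions (2.16%), and 60 (0.921%) had a peak in 2 or fewer samples at both.

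The number of peaks in a sample differed between samples and ages. P1 samples held between 177723 and 226329 peaks, P8 samples between 176017 and 227667, P15 samples between 138637 and 214435, and P22 hypothalami between 146319 and 175849. P15 PF 12, with the lowest share on P15, had the fewest peaks (138637) and 14545396 fragments after filtering, and P15 PAE 12, with the highest, had 214435 peaks and 22156238 fragments. The number of fragments followed another order, with medians of 13757600 on P1, 17620400 on P8, 19909200 on P15, and 17150600 in the P22 hypothalami. When the same number of peaks, 134870, was kept in every sample, those with the highest -log10 p-value, the 6516 regions held a peak in 62.8% ± 2.51 of cases on P1, 41.6% ± 3.13 on P8, 30.0% ± 3.04 on P15, and 7.99% ± 2.16 on P22 (SD, n = 12 each). The P8 and P15 ranges, 37.0 to 47.5% and 26.2 to 36.2%, then did not overlap.

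Extraction round and breeding cohort could be compared only in part. Every round of DNA extraction from the hypothalamus held a single age, so that age and round cannot be told apart. Between the rounds of an age, the mean shares were 66.9% and 64.3% on P8, and 37.6% and 44.9% on P15 (n = 6 each). All P15 animals came from breeding cohort Dev-4, and the 6 P8 animals of that cohort had a mean of 65.6% ± 5.87, close to the 65.5% ± 3.62 of the 6 from Dev-5. The step from P15 to P22 coincides with the change of meDIP round, and so does the contrast of P1 with P22 in the rule. In both, age and meDIP round cannot be told apart. WBC went through the same round as the P22 hypothalamus but are another tissue, so they do not separate age from round.

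To ask which single regions had lower peaks on P15 than on P8, each sample was given the height of its tallest peak in a region, counted in fragments over the summit and scaled between samples. Samples without a peak were set to a floor of 6.36 fragments, and log2 heights were fitted with limma across all regions in which 3 or more samples of the series held a peak. Of the 414397 regions tested, 45 were lower on P15 at a false discovery rate (FDR, the Benjamini-Hochberg adjusted p) under 0.05 (0.0109%), and 129 were higher (0.0311%). Of the 6515 regions of the set that could be tested, 6 were lower (0.0921%) and 0 were higher. At an unadjusted p under 0.05, 789 (12.1%) were lower and 29 (0.445%) higher, against 4.58% lower and 2.28% higher among all regions tested. All regions tested include those with a peak in as few as 1 of the fitted samples, which are otherwise at the floor. The shares of the set and of all regions are therefore not on equal terms. The median difference, P15 minus P8, was -0.20 on the log2 scale in the set and 0.00 over all regions, and 74.8% of the set had a negative difference, against 48.1% of all. The size of the median depends on the floor, being -0.45 in the set with a floor lower by 1 on the log2 scale (-0.04 over all regions), and -0.33 with fold enrichment in place of height (-0.04 over all). The remaining region had no peak on P8 or P15. Because no P15 animal came from Dev-5, the breeding term leaves this contrast to the 6 P8 animals of Dev-4. Within Dev-4, P8 C 5 and P15 C 9 carry the same animal number in the labels. The same holds for P8 PF 5 and P15 PF 10, and for P8 PAE 5 and P15 PAE 9. Whether this number marks a litter is not given, and the fit treated all samples as independent.

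The count of 6 depended on the scaling and on single replicate numbers. With scaling by the number of fragments, 245 regions of the set were lower on P15 and 0 higher, but the median over all regions then moved to -0.12, with 8224 regions lower and 131 higher in all, and the median of the set was -0.35. The count was 28 without breeding cohort in the model, 11 with peaks at a q-value under 0.001, and 10 with fold enrichment in place of height, where 179, 72, and 57 of all regions were lower. Leaving out the samples of replicate number 6 gave 15 (0.230%), of which 2 were among the 6, but 1034 of all regions (0.253%) were then lower. Leaving out number 5 gave 2 (0.0307%), against 589 of all regions (0.145%). The share of the set was thus not above that of all regions without number 6 or without number 5. The P8 animals of Dev-4, to which the contrast is left, all have number 5 or 6. Without either number, the contrast therefore rests on P8 samples of a single number and a single extraction round. Leaving out number 9 or 11 also gave 2 each, against 18 and 16 of all regions. Fisher's exact test on the presence of a peak gave 0 at an FDR under 0.05, with 1027 of the set lower (15.8%) and 4 higher (0.0614%) at an unadjusted p under 0.05, against 2.86% lower and 0.622% higher among all regions. Some of all the regions had a peak in too few of these samples for such a p. With the same number of peaks in every sample, which was tried only after seeing the data, 4 regions were lower (0.0614%), against 27 of all regions (0.00652%), and the median of the set was -0.03, with 0 over all regions.

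The 6 regions had peaks on most P8 samples and on almost no P15 sample. At chr9:17467284-17468540, P8 heights were 12.9 at the lowest, 18.6 at the median, and 29.5 at the highest of 9 samples with a peak, and no P15 sample held one (log2 difference -1.70 ± 0.24 SE, adjusted p = 0.00316). Where no P15 sample held a peak, here and at the regions on chr2 and chr4 named below, the P15 value is the floor, which sets the size of the log2 difference. At chr5:152734409-152735395, all 12 P8 samples held a peak (lowest 9.93, median 16.1, highest 17.8), and 2 P15 samples did, at 9.41 and 10.9 (log2 difference -1.23 ± 0.18, adjusted p = 0.00518). At chr12:13092402-13093140, 11 P8 samples had heights from 17.5 to 24.5 with a median of 20.9, and a single P15 sample had 19.0 (log2 difference -1.51 ± 0.25, adjusted p = 0.0136). In these regions the ages overlapped only through P8 samples without a peak or with a low one, and through those few P15 peaks. The other regions were chr2:20446714-20447265 (11 P8 and 0 P15 samples, log2 difference -1.20, adjusted p = 0.0136), chr4:8199526-8200085 (11 and 0, log2 difference -1.08, adjusted p = 0.0445), and chr17:5286003-5286800 (10 and 1, log2 difference -1.05, adjusted p = 0.0485). In WBC, all 11 samples had a peak at chr5:152734409-152735395 and chr12:13092402-13093140, and 4 of 11 at chr9:17467284-17468540.

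The tallest P1 peaks among the 201 regions with the extreme pattern followed different courses. At chr12:40745-41327, the P1 heights were 43.0 at the lowest, 60.6 at the median, and 73.4 at the highest. All 12 P8 samples (median 49.6) and 7 P15 samples (median 61.7) held a peak there, and the P22 hypothalamus held none. Where present, the peaks had similar heights at these ages, while fewer P15 samples had one. At chr19:27818336-27819405, 12 P1 samples had heights from 13.9 to 40.7 (median 27.4), 8 P8 samples had a median of 29.3, and no P15 or P22 sample held a peak.

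The other regions of this kind still had peaks in some P15 samples. At chr10:83125144-83125736, P1 heights ranged from 20.8 to 36.3 (median 27.8), and 11 P8 and 3 P15 samples held a peak. At chr17:72210450-72211956, they ranged from 19.9 to 34.1 (median 25.5), and 12 P8 and 5 P15 samples did. At chr17:14733387-14735541, they ranged from 15.3 to 31.6 (median 25.1), and 11 P8 and 10 P15 samples still held a peak, with a P15 median of 29.0. In this last region, most P15 samples and no P22 sample thus held a peak.

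The extremes of the course were rare or unusual. A single region, chr1:148397861-148398417, had no peak on P8, P15 or P22, and its 10 P1 peaks were low (lowest 6.83, median 8.82, highest 16.4). Among the 141 regions with a peak in 10 or more samples on both P8 and P15, the tallest on P15 was chr1:180967095-180968089, where 12 P15 samples had heights from 146 to 214 (median 170) and 2 P22 samples had 126 and 137. These heights stand on a high local background, since the median fold enrichment of its peaks over that background was 2.37. At chr1:55709436-55710084, 11 P15 samples had heights from 46.6 to 83.1 (median 61.2), with a median fold enrichment of 1.88, the lowest of all 6516 regions. At chr9:86756646-86757269, by contrast, 11 P15 samples had a median height of 27.5 and the fold enrichment was 6.64.

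Many of the regions carried a peak in the blood cells of the P22 animals. The study left out a PF WBC sample that clustered with the hypothalami. PF 15 was taken here to be this sample, and its WBC values are given apart. In the other 11 WBC samples, the share of the regions with a peak was 57.5% at the lowest, 70.9% at the median, and 72.9% at the highest (mean 69.1% ± 4.98, SD), and it was 68.4% on average with PF 15. With the same number of peaks kept in every sample, the WBC mean was 44.9% ± 1.31. A peak in 9 or more of the 11 WBC samples was found in 2987 regions (45.8%) and in all 11 in 1269 (19.5%). A peak in 2 or fewer was found in 404 (6.20%), and in none in 111 (1.70%). Regions with a peak in 10 or more P1 and 3 to 9 P22 samples had a peak in 9 or more WBC samples in 69.6% of cases, retained regions in 88.2%, all regions with a peak in 10 or more P1 samples in 78.3%, and gaining regions in 3.28%.

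Counts within single animals describe the same samples, and their low number of hypothalamus peaks follows from the rule. In the 11 animals, between 3482 and 4327 of the regions (median 4022) had a peak in WBC but not in the hypothalamus of the same animal, and between 138 and 239 (median 186) had one in the hypothalamus only. In the P22 hypothalamus, an animal had a peak in between 430 and 1033 of the regions. Of these, between 61.4 and 78.8% (median 73.5%) also had one in its WBC. Over all 6516 regions, the share with a peak in WBC was close to this, between 57.5 and 72.9% (median 70.9%). The share of WBC samples with a peak was 78.9% in regions with a peak in 10 or more P8 samples and 54.2% in those with 2 or fewer. By the state on P15, it was 77.3% in the former and 62.7% in the latter class.

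Among the regions with a peak in all 11 WBC samples, the tallest differed in their course in the hypothalamus. At chr9:8415097-8415914, WBC heights were 50.1 at the lowest, 63.6 at the median, and 67.3 at the highest of 11 samples. There, 10 P1, 3 P8, 2 P15, and 0 P22 hypothalami had a peak, and those peaks were somewhat taller (P1 median 77.5, P8 69.9, P15 87.0). At chr12:40745-41327, the WBC heights ranged from 40.1 to 59.6, with a median of 47.4. At chr3:156457914-156459035, all 11 WBC samples had a peak (lowest 31.5, median 39.2, highest 58.0), and the numbers in the hypothalamus were 12 on P1, 11 on P8, 8 on P15, and 2 on P22. Peaks were thus already rare on P8 in the first of these regions and present in most P8 samples in the others.

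Prenatal groups were compared in samples that the rule did not use. On P8, the mean share of the regions with a peak was 61.6% ± 5.42 in C, 66.7% ± 3.42 in PF, and 68.4% ± 2.19 in PAE (SD, n = 4). On P15, it was 47.5% ± 5.17 in C, 37.7% ± 9.01 in PF, and 38.5% ± 12.3 in PAE. In WBC, it was 68.3% ± 4.63 in C, 67.6% ± 8.74 in PF (n = 3), and 71.1% ± 1.22 in PAE. The order of the groups differed between P8 and P15, and their ranges overlapped at each age: C samples lay between 55.2 and 68.0% and PAE samples between 66.4 and 71.5% on P8. Between C and PAE, differences in the number of peaks went the same way, with means of 190057 in C and 207692 in PAE on P8, and 186864 in C and 168321 in PAE on P15. Between PF and PAE on P15 they did not, since PF had the lower share but a mean of 172481 peaks. With the same number of peaks in every sample, the means were 42.4% in C, 41.4% in PF, and 41.0% in PAE on P8, and 32.9%, 27.6%, and 29.4% on P15, so that C was no longer the lowest group on P8. On P15, C samples then lay between 30.3 and 36.2%, PF samples between 26.2 and 29.3%, and PAE samples between 26.8 and 32.2%, so that C and PF did not overlap. In WBC, the means were 44.8%, 44.5%, and 45.2%. No test was made of these shares.

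By single regions, no prenatal group difference passed the threshold in the 24 hypothalami of P8 and P15. In limma models with extraction round and breeding cohort, 0 of 6515 regions of the set and 0 of 414397 in all (0%) had an FDR under 0.05 in any of the group comparisons (PAE vs. C, PAE vs. PF, PF vs. C). At an unadjusted p under 0.05, 331 regions of the set (5.08%) differed in PAE vs. C, of which 119 were higher and 212 lower in PAE, against 4.17% of all regions. Among all regions, 1.98% were higher and 2.19% lower, and in the set 1.83% and 3.25%. In PAE vs. PF, 253 (3.88%) did, with 135 higher and 118 lower, against 4.02% of all (2.01% in each direction). In PF vs. C, 332 (5.10%) did, with 104 higher (1.60%) and 228 lower (3.50%), against 4.35% of all (2.07% higher and 2.28% lower). In both comparisons with C, more of these regions were lower than higher. In PAE vs. C, the order was reversed with scaling by fragments, to 166 higher and 154 lower in the set. Of all 414397 regions, 10315 were then higher and 7074 lower. Without replicate number 9, 144 regions of the set were higher and 157 lower, against 7979 and 7932 of all 409350 regions tested. Any pair of these comparisons has a group in common. Fisher's exact test on called peaks also gave 0 at an FDR under 0.05, with 98 (1.5%), 71 (1.09%), and 101 (1.55%) regions of the set at an unadjusted p under 0.05, against 0.569%, 0.56%, and 0.589% of all regions. All regions include those with a peak in too few samples to reach such a p.

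The region with the smallest p in each comparison showed a difference in the number of samples with a peak. At chr1:98400848-98402811, all 8 C samples of P8 and P15 had a peak (lowest 12.9, median 14.8, highest 26.0), as did 6 of 8 PF samples, while 2 of 8 PAE samples had heights of 9.62 and 10.8 (PAE vs. C log2 difference -1.19, limma adjusted p = 0.893). At chr2:95008377-95009678, all 8 PAE samples had a peak (lowest 15.6, median 20.6, highest 30.2), as did 6 of 8 C samples, and 1 of 8 PF samples had one at 20.5 (PAE vs. PF log2 difference 1.61, adjusted p = 0.906). At chr7:70306332-70307001, 7 of 8 C samples had heights from 12.8 to 18.1, 2 of 8 PAE samples had 12.4 and 15.4, and no PF sample had a peak (PF vs. C log2 difference -1.06, adjusted p = 0.869). None of these passed the correction over all regions.

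In WBC, 0 of the 6405 regions of the set that could be tested with limma passed an FDR under 0.05 in any of the comparisons. Of the 341716 regions tested, 1 did so between PAE and C (0.000293%), 6 between PAE and PF (0.00176%), and 9 between PF and C (0.00263%). At an unadjusted p under 0.05, 292 regions of the set (4.56%) differed between PAE and C, 289 (4.51%) between PAE and PF, and 275 (4.29%) between PF and C, against 4.2%, 4.52%, and 4.36% of all regions. Fisher's exact test could not pass this FDR here, since its smallest possible p with these group sizes was 0.0286, and its count of 0 carries no information. At an unadjusted p under 0.05, it gave 20, 44, and 44 regions of the set (0.312%, 0.687%, and 0.687%), against 0.234%, 0.514%, and 0.506% of all regions. The remaining 111 regions had no peak in these WBC samples.

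The closest to the threshold was chr19:47223449-47224054. No C WBC sample had a peak there, whereas the PF samples 13, 14, and 16 had heights of 33.3, 21.3, and 26.3, and the PAE samples 13, 14, 15, and 16 had 24.7, 26.5, 24.6, and 35.8. The log2 difference was 2.11 in PAE vs. C (limma adjusted p = 0.0671) and 2.07 in PF vs. C (adjusted p = 0.0691), and PF 15, left out of the fit, had a height of 25.2. As no C sample had a peak, the size of the difference is set by the floor, and it was 3.11 and 3.07 with a floor lower by 1 on the log2 scale. The adjusted p fell under the threshold without breeding cohort in the model (0.0211 and 0.0229) and with the lower floor (0.0329 and 0.0227). In PF vs. C, it also did with PF 15 (0.0270) and with scaling by fragments (0.0433). Over all limma settings, the smallest adjusted p of any region of the set ranged from 0.0211 to 0.803 in PAE vs. C and from 0.0227 to 0.615 in PF vs. C. In the P8 and P15 hypothalamus, 3 of 8 C, 5 of 8 PF, and 4 of 8 PAE samples had a peak at this place, so the groups were not set apart there. At chr9:69750008-69750773, no PF WBC sample had a peak, including PF 15, and all 4 C samples (lowest 17.3, highest 21.0) and all 4 PAE samples (lowest 11.3, highest 23.6) had one (PAE vs. PF log2 difference 1.41, adjusted p = 0.388). A peak in every WBC sample of a group and in none of another was found in 20 regions of the set for PAE and C (0.312%), 44 for PAE and PF (0.687%), and 44 for PF and C (0.687%). Among all regions tested, these shares were 0.234%, 0.514%, and 0.506%. Regions with such a split are the same as those counted by Fisher's exact test above. With these group sizes, no other pattern reaches its unadjusted p under 0.05.

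The heights and lengths of the regions are not independent of the rule. It counted called peaks, and the P1 and P22 heights come from the samples it used. Peaks of the set were lower than those of retained regions, with a median over regions of the mean P1 height of 14.2 fragments against 22.3 (16.9 in regions with 3 to 9 P22 samples). The heights of the peaks that remained were similar at later ages, with medians of 13.4 on P8, 14.6 on P15, and 13.7 in the 5123 regions with any peak on P22, and 13.5 in WBC. The fold enrichment of single peaks in the set had medians of 4.82 on P1, 4.40 on P8, 3.89 on P15, and 3.73 on P22, against 5.79, 5.62, 4.82, and 5.01 in retained regions. A sample falls below the calling threshold more easily where peaks are low, and how far this accounts for the counts was not tested. The median length of the set was 860 bp (quartiles 674 and 1140). It was 1108.5 bp in retained regions, 960 bp in those with 3 to 9 P22 samples, 884 bp in gaining regions, and 617 bp over all 609781 regions. A merged region spans the peaks of all samples, so its length also depends on how many samples held a peak.

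The regions were spread over all 20 chromosomes. Their share among regions with a peak in 10 or more P1 samples was lowest on chr20 (134 of 2775, 4.83%) and highest on chr8 (371 of 5119, 7.25%). On chr1, the chromosome with the most, it was 726 of 10705 (6.78%). Next to a region of the set, the following region with a peak in 10 or more P1 samples belonged to the set in 9.01% of cases, against 6.12% next to other regions. The median distance between neighbours of the set was 250182 bp, and 220 of 6496 distances were under 10 kb.

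The densest group within 100 kb held 5 regions of the set, of 8 with a peak in 10 or more P1 samples, at chr1:134754817-134835606. Its members were chr1:134754817-134755621, chr1:134760091-134761413, chr1:134765842-134767230, chr1:134798916-134800297, and chr1:134833730-134835606. In this order, 10, 11, 9, 11, and 8 P8 samples and 3, 8, 5, 6, and 4 P15 samples held a peak. Between 7 and 11 WBC samples did. The tallest of them on P1 was chr1:134798916-134800297, with a lowest height of 12.4, a median of 21.2, and a highest of 27.4 in 10 samples. All 5 kept a peak in at least 3 P15 samples.

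A few of the regions overlapped differentially methylated regions that the study had listed from the same samples. By coordinates, 1 overlapped the list for the hypothalamus, which holds 114 regions on chr1 to chr20, and 3 the list for both tissues, which holds 291. Of both lists together, 403 regions overlapped any of the 609781 merged regions. The set makes up 1.07% of the merged regions, and its overlaps with each list are close to that share. The study took its lists from read counts with edgeR after batch correction, the hypothalamus list from all 48 hypothalami. The group fits here used heights of called peaks, and 24 of those hypothalami, so their counts cannot be set against the length of that list. At chr15:66140989-66141990, of the hypothalamus list, 10 P1, 3 P8, 2 P15, and 2 P22 samples had a peak. On P1, the heights were 13.6, 16.9, and 23.4 in C samples 1 to 3, between 13.6 and 14.9 in the 4 PF samples, and 6.92, 7.70, and 18.1 in PAE samples 2 to 4. On P8 and P15, 3 of 8 C, 2 of 8 PF, and 0 of 8 PAE samples had a peak (PAE vs. C log2 difference -0.44, limma adjusted p = 0.893). On P8 and P15, PAE samples thus had no peak, but the study chose this region on the same samples, and the difference did not pass the correction.

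The regions of the other list were chr1:75812846-75813509, chr16:9998609-9999903, and chr5:67629981-67630562. At chr16:9998609-9999903, all 11 WBC samples had a peak (lowest 21.0, median 27.7, highest 29.4), as did 12 P1, 10 P8, 4 P15, and 2 P22 hypothalami. At chr1:75812846-75813509, 8 WBC samples had one, and the hypothalamus counts were 12, 9, 8, and 0. At chr5:67629981-67630562, all 4 C WBC samples had a peak, from 13.0 to 18.1. Of the PF samples, 2 of 3 had one, at 9.91 and 14.7, and 2 of 4 PAE samples did, at 9.49 and 12.2. The PAE vs. C log2 difference in WBC was -0.85 there (limma adjusted p = 0.828). It was 0.08 at chr16:9998609-9999903 and 0.16 at chr1:75812846-75813509. The study chose these regions, too, on the same samples.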

How the data were processed

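The authors aligned reads to Rn6 and ran MACS2 2.1.0.20140616 on each sample alone, with no input and a q-value limit of 0.05. The signal they deposited for each summit is its height in fragments, not scaled to depth. Fold enrichment, as deposited, is a ratio that sets this height against the local background. MACS2 also gave the -log10 p-value and q-value deposited with each summit. No peak list was identical to another (0 cases). Summits of a peak were joined, and the highest was used. For scaling, each sample's median log ratio to the average height was taken in the 19715 regions where all 60 samples had a peak.

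Models were fitted with limma 3.58.1 in R 4.3.3 (empirical Bayes with a trend, two-sided) over all regions where 3 or more samples of the series, and 1 or more of the fitted ones, had a peak, with Benjamini-Hochberg adjustment over all of them. P15 vs. P8 held age, group, and breeding cohort. Groups on P8 and P15 were fitted with extraction round and breeding cohort, and WBC (11 samples) with breeding cohort. The age fit was tested on simulated data. Python 3.11.15 (numpy 2.4.6, pandas 2.3.3) was used for all other values. Alternatives are given in the closing section.

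The regions and the rules for those named were chosen with earlier results of these data known. Named are the 5 tallest P1 peaks with 12 P1 and 0 P22 samples, the 3 tallest of those with no peak on P8, P15 or P22 (1 exists), of those with a peak in 10 or more P8 and P15 samples, and of those in all 11 WBC samples, those with the smallest p in each comparison, the densest group within 100 kb, and overlaps with the study's lists. The 4th to 6th regions lower on P15 were named after their values were seen, and the fold enrichment of single regions and the counts of WBC peaks present throughout one group and absent from another were also computed then. No annotation of Rn6 was used here, so genes at these positions were not analysed. The titles of the youngest samples read P0, and their age label of 1 day is used.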

Additional observations from a re-analysis of the deposited data

Results flagged for a closer look

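PF 15 WBC, which was left out of the group comparisons except as an alternative, held a peak in 49.7% of the 2864 gaining regions. The other 11 WBC samples held one in between 6.67 and 11.1% of them, and the P22 hypothalami in between 83.6 and 96.9%. In the 6516 regions that lose peaks, the same sample had a peak in 60.3%, against between 57.5 and 72.9% in the other WBC samples and between 5.82 and 15.9% in the P22 hypothalami. Both values of this sample lay within the ranges of the P8 hypothalami, which were 32.6 to 64.8% for gaining regions and 55.2 to 71.5% for regions losing peaks. In retained regions, it held a peak in 97.4%, above the highest of the other WBC samples (93.3%). The source of this pattern was not tested.

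The share of the regions with a peak was also looked at within the 9 groups of 4 samples of P8, P15, and WBC by prenatal group, with PF 15 included. In 0 of these did a sample stand so far from the rest as to pass the 95% limit, which chance passes in about 1 of 20 groups.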

How the results depend on the processing

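The number of regions moved with the rule and with the peaks kept: 201 with 12 of 12 P1 and 0 of 12 P22 samples, 16332 with 9 or more and 3 or fewer, 15250 within cohort Dev-3 (5 or more of 6 and 1 or fewer of 6), and 2561 with the same number of peaks in every sample. Leaving out a replicate number of the P1 or P22 samples gave between 5050 and 6209. The replicate numbers of P8 and P15 samples do not enter the rule. With the regions chosen anew under each setting, the share with a peak stayed within 1 SD on P8 and P15, with ranges of 64.4 to 66.4% and 39.8 to 42.8% when replicate numbers were left out. In WBC it was 76.9% under the strictest rule, 61.6% with the same number of peaks in every sample, and 67.9 to 70.2% without each replicate number. For the 6516 regions themselves, the same number of peaks moved the share by more than 1 SD, to 41.6% on P8, 30.0% on P15, and 44.9% in WBC.

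The count of regions lower on P15 than on P8 was 28 without breeding cohort, 10 with fold enrichment, 11 with peaks at a q-value under 0.001, 245 with scaling by fragments, and 0 with Fisher's exact test, and it lay between 2 and 15 without each replicate number. Over all regions it was 45 in the model used and 179, 57, 72, 8224, and 0 in these settings, with 16 to 1034 without each replicate number. Of the 6 regions, 5 were among the 28, 5 among the 10, 6 among the 11, and 6 among the 245, but only 2 among the 15 without number 6, 2 among the 4 without number 10, and 4 among the 6 within cohort Dev-4. The cause of these shifts was not tested. With the same number of peaks in every sample, chosen after seeing the data, it was 4, of which 2 were among the 6, and 27 over all regions. For prenatal groups on P8 and P15, all settings tried gave 0 in the set and at most 1 over all regions. A setting among these took all 48 hypothalamus samples, and so also the P1 and P22 samples that the rule used. In WBC, 1 region of the set was called in PAE vs. C without breeding cohort (19 over all regions) and with the lower floor (7), in PAE vs. PF with peaks at a q-value under 0.001 (chr6:132354173-132355122; 29), and in PF vs. C without breeding cohort (58), with PF 15 (12), with scaling by fragments (16), and with the lower floor (26). Without each replicate number, the group counts of the set were 0 at the lowest and 0 at the highest.

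Replicate numbers are shared by the groups but did not pair the samples: deviations from group means of same-numbered samples correlated at a mean of -0.00366 in the hypothalamus (24 pairs) and -0.0029 in WBC (10 pairs). With the number as a block, 0 regions of the set were called in each group comparison, as without the block. A peak under the calling threshold is not seen, so losses below it were not detectable at this depth.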
